A study of Mus musculus with 16 samples.

Results

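The 32 genes described here encode nuclear receptors that are known from mouse liver, chosen as a named list of gene symbols. Of the 32, 31 were among the 15119 genes of the deposited counts table and all 31 were among the 14434 genes tested. The last one, Vdr, was in a second deposited table alone and was not tested. Poly(A) RNA was sequenced from livers of female mice in 16 libraries, with 4 in each of 4 groups. LKO mice carried a hepatocyte knockout of Arglu1, which encodes a coregulator of transcription, and were compared with WT mice. All mice were aged to 9 months on chow. They then received 12 weeks of high-fat diet (HFD, TD. 88137) or stayed on chow, which gave the groups LKO HFD, WT HFD, LKO chow and WT chow. The promoter that drives the knockout and the exons it removes are not given in the sources used here. The labels do not say whether each library is a separate animal, and the errors and p-values given therefore measure how far the libraries of a group differed, which may be technical in part.

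Nuclear receptors are transcription factors that bind short DNA motifs, mostly as dimers, and many of them change their activity when a small lipophilic ligand occupies them. In liver they read retinoic acid, thyroid hormone, fatty acids, oxysterols, bile acids, steroids and foreign compounds, and they set the level of the enzymes and transporters that handle these same molecules. The retinoid X receptors are the common dimer partner of the retinoic acid, thyroid hormone, PPAR, LXR, FXR, PXR and CAR receptors. Coactivators and corepressors, the class of protein to which ARGLU1 is assigned, carry the signal from the bound receptor to the transcription machinery.

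Many of the receptors, but not all, bind the core motif AGGTCA or a close variant of it, often as a repeated pair. Nr0b2 has no DNA-binding domain. The search described here covered direct repeats of this motif alone. Single copies, inverted pairs and other motifs were not searched. The 250 bases upstream of 45 start sites of 30 members were read from RefSeq (GRCm38.p6) and searched on both strands for direct repeats with 0 to 5 bases between the pair. Each element of a pair could be the core AGGTCA. It could also be the variant AGTTCA, the variant GGGTCA or else the variant GGTTCA. Such a repeat was found in 1 of the 30 members, Rarb. Its spacing was 5 bases, it ran on the gene's strand from -53 to -37 relative to the start site, and it overlapped no other repeat searched. Direct repeats with this spacing were in 29 of 32851 promoters of the same length (0.0883%). The other spacings were in between 0.0396% and 0.186% of them. Retinoic acid receptors are known to bind direct repeats of this spacing, and Rarb is a textbook target gene of retinoic acid. The windows of Rarb, which holds the repeat, and of Rarg and Nr1i2, which were called between genotypes on both diets under every alternative run, are printed 5′ to 3′ on the gene's strand, which is minus for all 4, with the repeat of Rarb in capitals. They are chr14:16575477-16575726 for Rarb, chr15:102257523-102257772 and chr15:102246501-102246750 for the outer and inner start sites of Rarg, and chr16:38294825-38295074 for Nr1i2.
Rarb: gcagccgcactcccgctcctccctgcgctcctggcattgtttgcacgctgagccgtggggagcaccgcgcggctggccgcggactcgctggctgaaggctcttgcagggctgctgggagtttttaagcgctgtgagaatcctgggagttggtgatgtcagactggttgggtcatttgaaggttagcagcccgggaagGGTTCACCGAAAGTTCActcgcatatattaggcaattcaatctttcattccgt
Rarg outer start site: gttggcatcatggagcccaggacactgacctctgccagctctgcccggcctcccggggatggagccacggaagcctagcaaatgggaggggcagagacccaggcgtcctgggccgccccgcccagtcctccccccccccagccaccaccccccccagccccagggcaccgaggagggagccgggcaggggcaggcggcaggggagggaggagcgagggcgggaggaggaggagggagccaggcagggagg
Rarg inner start site: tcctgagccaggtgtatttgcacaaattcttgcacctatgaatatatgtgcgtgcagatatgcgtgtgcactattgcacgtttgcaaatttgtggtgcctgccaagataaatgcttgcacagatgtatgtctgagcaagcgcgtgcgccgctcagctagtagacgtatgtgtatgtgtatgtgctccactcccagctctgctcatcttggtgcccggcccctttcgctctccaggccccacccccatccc
Nr1i2: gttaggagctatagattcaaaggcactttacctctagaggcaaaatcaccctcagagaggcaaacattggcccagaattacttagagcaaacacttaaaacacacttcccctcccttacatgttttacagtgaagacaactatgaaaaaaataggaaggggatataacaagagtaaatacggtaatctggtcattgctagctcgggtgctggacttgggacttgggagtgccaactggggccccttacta

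Transcript levels of the receptors spanned a wide range. Counts were scaled to the size of the library (CPM) and, to compare genes with each other, divided by the length of the gene's exons in kb. In WT chow the level per kb ran from 134 CPM per kb for Hnf4a, the hepatocyte master regulator, to 0.230 CPM per kb for Nr4a2, an immediate early orphan receptor, a ratio of 584 among the 31 genes. Hnf4a was followed by Rxra at 77.5, the constitutive androstane receptor gene Nr1i3 at 60.7, the orphan receptor Nr2f6 at 49.9, the bile acid receptor gene Nr1h4 (FXR) at 44.3 and the oxysterol receptor gene Nr1h3 at 43.3 CPM per kb. The lower end held Rarg at 1.57, Nr4a1 at 1.17, Rarb at 0.577 and Nr2f1 at 0.307 CPM per kb. The vitamin D receptor gene Vdr had at most 0.165 CPM in a library of LKO HFD, 0.181 in WT HFD, 0.0441 in LKO chow and 0.161 in WT chow, and was listed at 0 in at least 1 library of each group. The exon length counts every annotated exon, so a gene with long alternative ends is ranked lower than its main transcript alone would be.

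**Figure D1:**
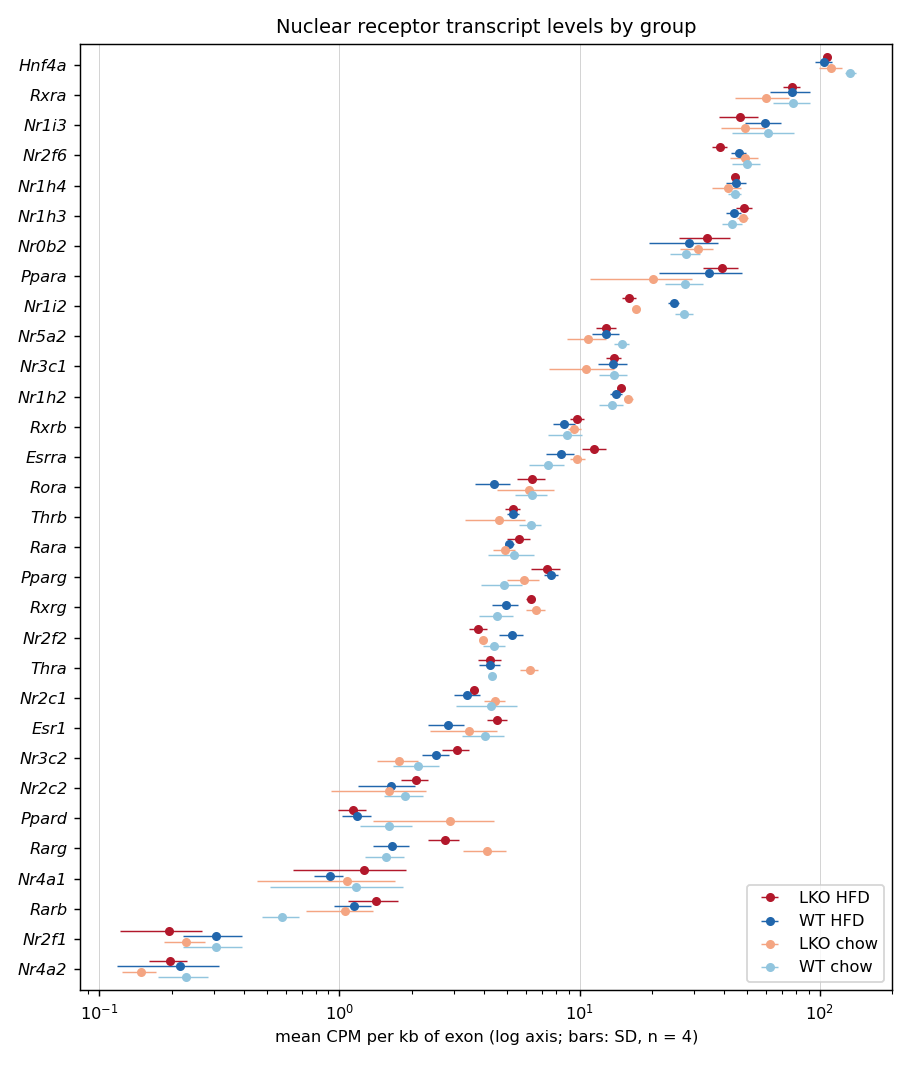
Mean level of 31 nuclear receptor transcripts in CPM per kb of exon (log axis, SD over 4 libraries as bars) in LKO HFD, WT HFD, LKO chow and WT chow, sorted by WT chow. Hnf4a stands highest at 134 and Nr4a2 lowest at 0.230 CPM per kb in WT chow.

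Total estimated counts ran from 19142612 to 25120565 per library. Arglu1 was lower in LKO libraries than in WT libraries on both diets with no overlap, with means of 15.5 against 42.2 CPM on HFD and 14.7 against 41.2 CPM on chow. Of 10 hepatocyte markers 9 were in the files, and none was at 0 throughout a group. Their summed level ran from 85237 to 101467 CPM in LKO HFD, from 67016 to 72146 in WT HFD, from 113404 to 127815 in LKO chow and from 91518 to 120422 in WT chow. The sum in WT HFD was thus below that of each other group without overlap. In the WT groups most of this sum was the albumin gene Alb, whose means are given with the WT diet results. The median log2 fold change of the 9 markers was -0.07 in LKO against WT on HFD, with 1 called higher and 1 lower. The part of these markers in the results was not tested. Libraries 3 and 4 of LKO chow stood apart from libraries 1 and 2 of the same group on the second principal component (38.1 and 34.7 against -10.7 and -11.1). Of the circadian genes, Dbp and Arntl were looked at after their values were seen. In LKO chow libraries 1 to 4, Dbp had 6.70, 1.42, 48.9 and 66.9 CPM and Arntl 31.7, 29.3, 16.3 and 10.9 CPM, so that both genes separated libraries 3 and 4 from 1 and 2. Summed CPM of 12 endothelial markers in LKO chow libraries 1 to 4 was 761, 615, 301 and 288. It was 750, 658, 184 and 365 for 12 Kupffer cell and macrophage markers. For 12 stellate cell markers it was 454, 403, 327 and 302. These sums were lower in libraries 3 and 4, and that of 5 adipocyte markers was higher there. Hepatocyte, bile duct, T and NK cell and B and plasma cell sums did not separate the pairs. Collection times are not given in the labels. Their part and that of these markers in the results were not tested. Results that rest on LKO chow are therefore given with and without these pairs of libraries where a call depends on them. In whole liver RNA, fewer cells of a type and less RNA per cell cannot be told apart.

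Loss of Arglu1 was compared with WT on each diet to ask which receptor genes were at another level in its absence. The retinoic acid receptor gene Rarg and the orphan receptor gene Esrra were higher in LKO than in WT liver on both diets, and the pregnane X receptor gene Nr1i2 was lower on both. On HFD, Esr1 and Rora were also higher and Nr2f2 lower. On chow, Rarb, Rxrg, Thra and Ppard were also higher and Nr5a2, Thrb and Hnf4a lower. In all, 6 of 31 receptors were called in LKO HFD against WT HFD (19.4%, 4 higher and 2 lower), beside 17.9% of all genes tested (10.3% higher, 7.57% lower). In LKO chow against WT chow 10 of 31 were called (32.3%, 6 higher and 4 lower), beside 24.7% of all genes (12.9% higher, 11.8% lower). Both shares lie near the background of these comparisons. The median log2 fold change of the receptors was 0.07 on HFD and -0.13 on chow, where that of all genes was -0.01 and 0.02. A call is an adjusted p below 0.05 over all genes tested in the edgeR quasi-likelihood fit. The HFD count fell to 3 without LKO HFD library 1, beside 13.6% of all genes in that fit. The chow count fell to 6 without WT chow library 3 (beside 20.3% of all genes) and to 6 without LKO chow libraries 3 and 4 (beside 16.2%). It was also 6 in a fit of the chow groups alone, beside 15.4% of all genes, which lost Thrb (adjusted p = 0.130), Ppard (adjusted p = 0.148), Hnf4a (adjusted p = 0.155) and Esrra (adjusted p = 0.0575).

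**Figure D2:**
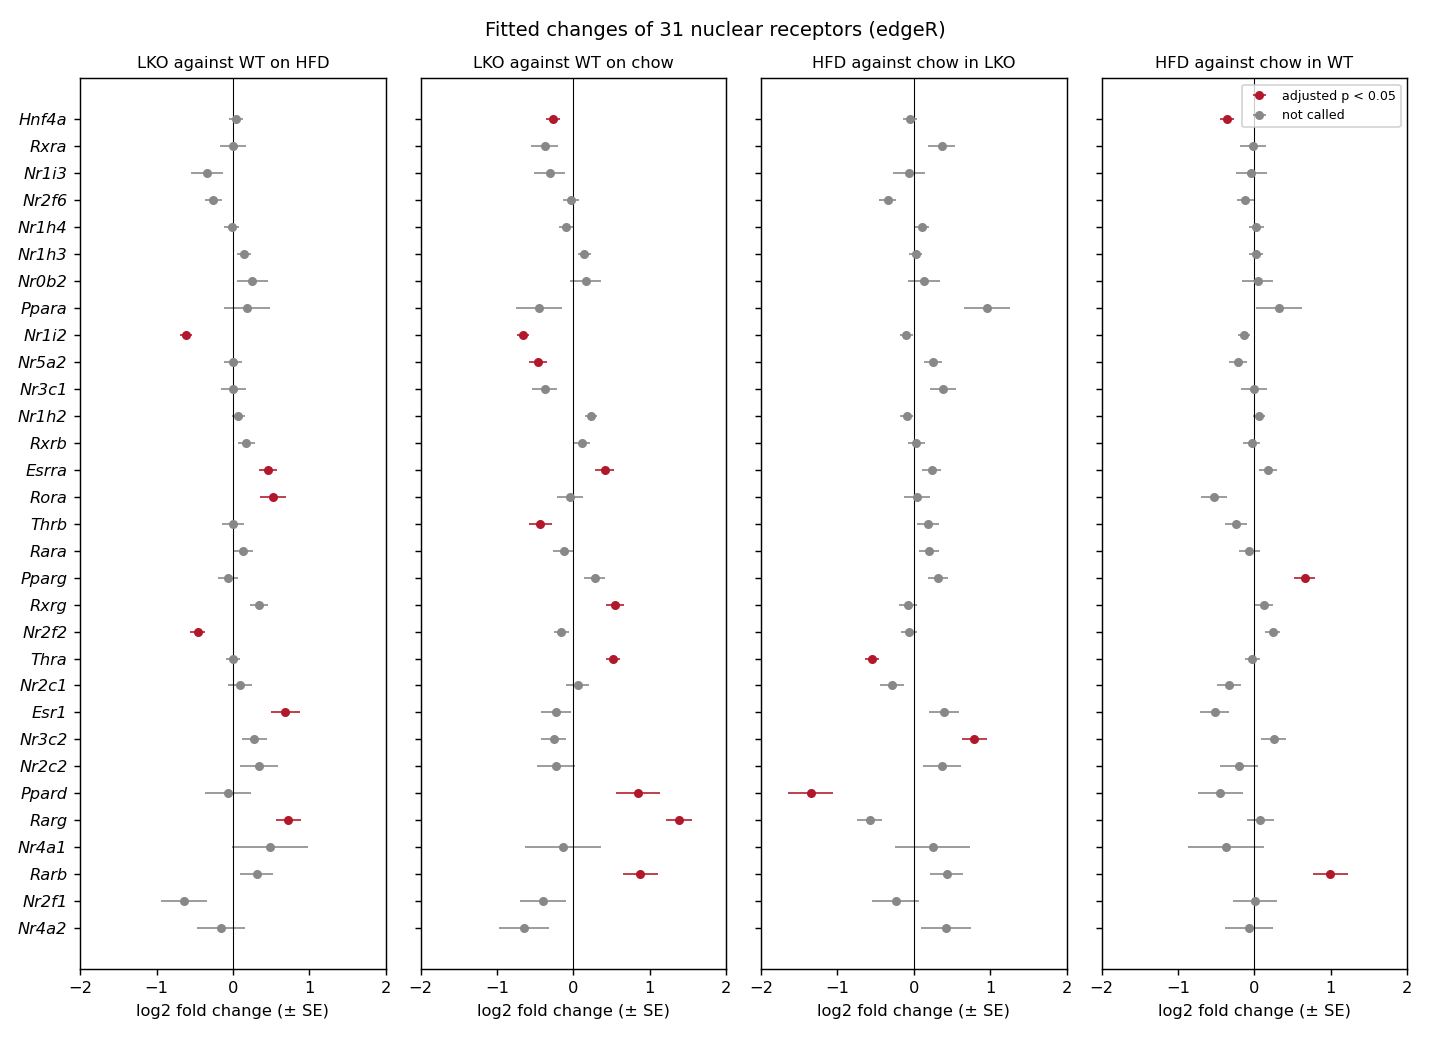
Fitted log2 fold change with its SE (edgeR, horizontal axis) of 31 receptors in each of 4 comparisons, with genes called at an adjusted p below 0.05 in red. Rarg (0.73 and 1.38) and Nr1i2 (-0.62 and -0.66) are called in both LKO panels, and the diet panels hold 3 called genes each.

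Among the retinoic acid receptors, which bind all-trans retinoic acid made from vitamin A, Rarg rose most in LKO liver. It had 10.2, 11.6, 14.1 and 10.9 CPM in LKO HFD, against 6.92, 5.80, 6.82 and 8.72 CPM in WT HFD. In LKO chow it had 19.9, 15.6, 20.9 and 13.4 CPM, against 5.63, 8.47, 6.51 and 6.09 CPM in WT chow. Every LKO library was above every WT library of its diet. The log2 fold change was 0.73 on HFD (SE 0.169, adjusted p = 0.00568) and 1.38 on chow (SE 0.170, adjusted p = 1.49e-05), which is 1.65-fold and 2.61-fold. Both calls held under every alternative run. Rarg occupies chromosome 15, 102234938 to 102257517, on the minus strand (GRCm38). Rarb, the receptor gene that retinoic acid itself induces, had 7.29, 6.54, 4.77 and 3.52 CPM in LKO chow, against 2.67, 3.33, 3.64 and 2.51 CPM in WT chow. The lowest LKO chow library fell within the WT chow range. The rise was 0.87 on the log2 scale (SE 0.230, adjusted p = 0.00988), and without LKO chow libraries 1 and 2 it was 0.45 and not called (adjusted p = 0.162). It was not called by limma voom either. On HFD, Rarb averaged 7.47 ± 1.77 CPM in LKO and 6.05 ± 1.06 CPM in WT (SD, n = 4 each; log2 0.31, adjusted p = 0.366). Exons of Rarb share 1793 bases with Top2b on the other strand, and whether the counting used strand is not given. Top2b moved the other way, with log2 fold changes of -0.52 on HFD (adjusted p = 0.00116) and -0.66 on chow (adjusted p = 0.000113). Rara, the most abundant of the family per kb, averaged 24.4 ± 2.73 CPM in LKO HFD, 22.2 ± 0.937 in WT HFD, 21.3 ± 2.29 in LKO chow and 23.2 ± 5.02 in WT chow, and was not called. As a share of the summed level per kb of the 3 receptors, Rarg made up 28.1 ± 1.49% in LKO HFD, 20.97 ± 3.45% in WT HFD, 40.7 ± 5.72% in LKO chow and 21.2 ± 3.49% in WT chow.

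**Figure D3:**
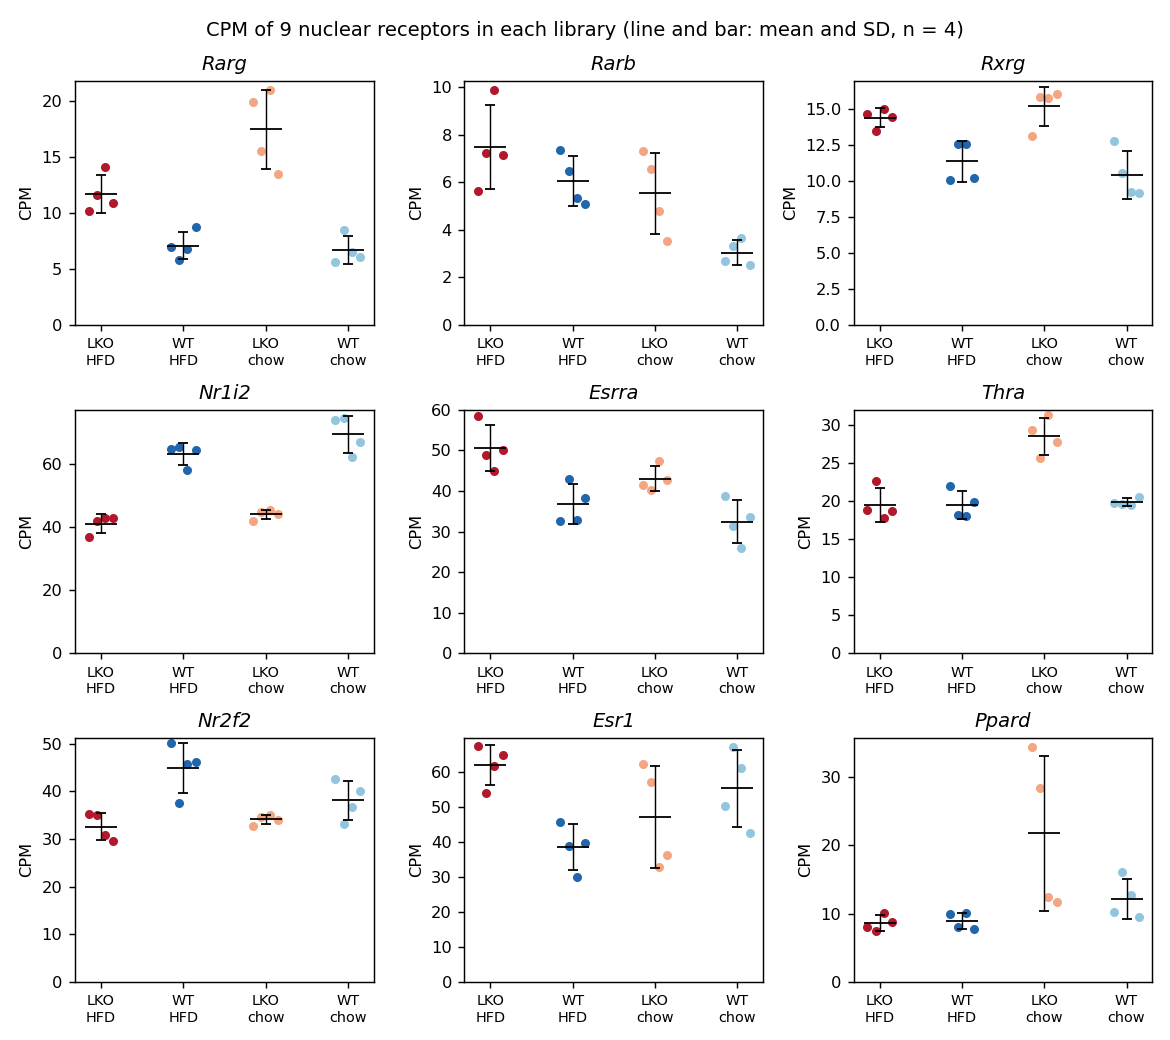
CPM of 9 receptor genes in each library (points), with the group mean and SD (n = 4), in the order LKO HFD, WT HFD, LKO chow and WT chow. Rarg and Nr1i2 separate LKO from WT libraries on both diets, Thra stands high in LKO chow alone of the 4 groups, and Ppard is high in libraries 1 and 2 of LKO chow.

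Of the retinoid X receptors, the shared dimer partners, Rxrg was the one that rose. It had 13.1, 15.8, 15.8 and 16.02 CPM in LKO chow, against 12.7, 10.5, 9.20 and 9.18 CPM in WT chow, with no overlap between the groups. The log2 fold change was 0.54 (SE 0.120, adjusted p = 0.00304), and the call held under every alternative run. On HFD it had 14.7, 13.5, 14.98 and 14.4 CPM in LKO, against 10.1, 12.6, 12.6 and 10.2 CPM in WT. These groups did not overlap either, yet the gene was just outside the threshold (log2 0.34, SE 0.119, adjusted p = 0.0577). DESeq2 called it there (adjusted p = 0.0471). Rxra, by far the most abundant of the family, averaged 419 ± 32.7 CPM in LKO HFD and 418 ± 78.2 in WT HFD, and 326 ± 83.3 CPM in LKO chow and 423 ± 74.3 in WT chow. It was called on neither diet (adjusted p = 0.995 and 0.123). In LKO chow its libraries stood at 366, 424, 262 and 251.4 CPM. Rxrb averaged 38.7 ± 2.56 CPM in LKO HFD, 34.3 ± 3.61 in WT HFD, 37.8 ± 2.34 in LKO chow and 35.1 ± 5.72 in WT chow, and was not called.

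The thyroid hormone receptor genes went in opposite directions in LKO chow. Thra had 29.4, 25.7, 31.4 and 27.8 CPM in LKO chow, against 19.8, 19.7, 19.5 and 20.6 CPM in WT chow, with no overlap (log2 0.52, SE 0.095, adjusted p = 0.000719). This call held under every alternative run. On HFD it had 18.9, 22.7, 17.8 and 18.7 CPM in LKO and 22.0, 18.1, 18.1 and 19.9 CPM in WT, which overlapped (log2 -0.00, adjusted p = 0.996). Exons of Thra share 263 bases with Nr1d1, the clock repressor gene on the other strand, which was not called in LKO chow (log2 -0.36, adjusted p = 0.512). Thrb, the main thyroid hormone receptor of hepatocytes, had 44.1, 40.8, 26.9 and 25.2 CPM in LKO chow, against 45.0, 46.7, 52.6 and 40.7 CPM in WT chow. Libraries 3 and 4 of LKO chow lay below the WT range, and libraries 1 and 2 within it. The call (log2 -0.43, SE 0.146, adjusted p = 0.0388) was lost without LKO chow libraries 3 and 4 (log2 -0.12, adjusted p = 0.460) and without any one of 5 libraries, which were WT chow 1, 2 and 3 and LKO chow 3 and 4 (adjusted p between 0.0587 and 0.130). On HFD its mean was 39.1 CPM in both genotypes. Per kb, Thra made up 57.8 ± 7.88% of the summed level of the pair in LKO chow, beside 41.0 ± 3.08% in WT chow, and 44.5 ± 0.952% in LKO HFD, beside 44.5 ± 1.49% in WT HFD.

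The PPAR genes encode receptors for fatty acids and their derivatives. Ppara, which drives fatty acid oxidation in fasting, had 157.9, 176, 117 and 149 CPM in LKO HFD and 198, 78.9, 115 and 137 CPM in WT HFD. In LKO chow it had 87.0, 123, 44.9 and 55.1 CPM, and in WT chow 95.6, 131, 109 and 87.8 CPM. The genotypes overlapped on both diets, and Ppara was called between them on neither (log2 0.18 and -0.45, adjusted p = 0.740 and 0.310). By diet, its log2 fold change on HFD was 0.95 in LKO (SE 0.302, adjusted p = 0.115) and 0.32 in WT (adjusted p = 0.696). Neither was called, though 4 of 19 alternatives called the LKO change. Ppard, the ubiquitous member, had 34.4, 28.4, 12.5 and 11.7 CPM in LKO chow, against 10.2, 16.1, 12.7 and 9.50 CPM in WT chow. Only libraries 1 and 2 of LKO chow lay above the WT range. Its call (log2 0.84, SE 0.291, adjusted p = 0.0451) turned to -0.01 without these libraries (adjusted p = 0.982). It was also lost without any one of 5 libraries, which were WT chow 1, 3 and 4 and LKO chow 1 and 2 (adjusted p between 0.0857 and 0.153). Pparg, the adipogenic member, had 17.7, 21.2, 24.6 and 22.6 CPM in LKO HFD and 23.01, 24.4, 21.7 and 20.9 CPM in WT HFD. On chow it had 15.6, 16.04, 16.6 and 21.2 CPM in LKO and 11.3, 13.2, 14.8 and 17.7 CPM in WT. The genotypes overlapped on both diets and Pparg was not called in LKO (log2 -0.06 and 0.28, adjusted p = 0.806 and 0.1496).

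Nr1i2 fell in LKO liver on both diets. It encodes the pregnane X receptor, which induces drug-metabolising enzymes in response to foreign compounds and bile acids. It had 36.9, 42.0, 43.0 and 42.8 CPM in LKO HFD, against 64.8, 65.3, 58.1 and 64.4 CPM in WT HFD. In LKO chow it had 42.0, 44.7, 45.5 and 44.1 CPM, against 74.0, 74.7, 62.4 and 67.1 CPM in WT chow. All 8 LKO libraries were below all 8 WT libraries. The log2 fold change was -0.62 on HFD (SE 0.081, adjusted p = 3.84e-05) and -0.66 on chow (SE 0.081, adjusted p = 1.49e-05), and both calls held under every alternative run. Nr1i2 occupies chromosome 16, 38248323 to 38294824, on the minus strand (GRCm38). Its relative Nr1i3, the constitutive androstane receptor, averaged 206 ± 37.9 CPM in LKO HFD and 261 ± 45.3 in WT HFD, and 216 ± 45.0 CPM in LKO chow and 268 ± 77.2 in WT chow. It was not called (log2 -0.34 and -0.31, adjusted p = 0.288 and 0.303). Of its exon bases, 3304 are shared with Tomm40l on the other strand, whose counts were higher in LKO on HFD (log2 0.59, adjusted p = 0.0472) and on chow (log2 0.67, adjusted p = 0.0203).

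Of Nr1h2, Nr1h3, Nr1h4, Nr0b2 and Nr5a2, which act in sterol and bile acid metabolism, Nr5a2 alone was called between genotypes, on chow. The LXR genes Nr1h3 and Nr1h2, which encode oxysterol receptors, had log2 fold changes of 0.15 and 0.07 on HFD and of 0.14 and 0.23 on chow, and the last was just outside the threshold (Nr1h2, adjusted p = 0.0501). Nr1h4 (FXR) averaged 103 ± 3.39 CPM in LKO HFD, 104 ± 10.1 in WT HFD, 95.6 ± 13.1 in LKO chow and 102 ± 6.19 in WT chow. Nr0b2 (SHP), a receptor without a DNA-binding domain that FXR induces and that represses bile acid synthesis, averaged 38.6 ± 9.27 CPM in LKO HFD, 32.4 ± 10.3 in WT HFD, 35.2 ± 5.39 in LKO chow and 31.4 ± 4.49 in WT chow. Neither gene was called. Nr5a2, the liver receptor homologue that promotes bile acid synthesis genes, had 74.7, 73.6, 51.2 and 57.6 CPM in LKO chow, against 85.6, 81.6, 95.7 and 91.5 CPM in WT chow. The groups did not overlap (log2 -0.46, SE 0.123, adjusted p = 0.0103), but the call was lost without LKO chow libraries 3 and 4 (log2 -0.26, adjusted p = 0.155). On HFD its means were 76.4 ± 7.10 CPM in LKO and 76.3 ± 9.76 CPM in WT.

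Among the steroid receptors, Esr1, the oestrogen receptor gene, had 67.5, 54.2, 61.8 and 65.1 CPM in LKO HFD, against 45.8, 39.0, 29.9 and 39.7 CPM in WT HFD. The groups did not overlap (log2 0.69, SE 0.194, adjusted p = 0.0198). The call was lost without WT HFD library 3 (log2 0.58, adjusted p = 0.0691) or LKO HFD library 1 (log2 0.65, adjusted p = 0.0563). On chow, Esr1 had 62.4, 57.2, 33.0 and 36.4 CPM in LKO and 50.4, 67.1, 61.4 and 42.6 CPM in WT, so that libraries 3 and 4 of LKO chow were lowest. It was not called there (log2 -0.23, adjusted p = 0.433). Nr3c1, the glucocorticoid receptor gene, averaged 107 ± 7.59 CPM in LKO HFD, 106 ± 14.4 in WT HFD, 82.1 ± 24.8 in LKO chow and 107 ± 14.4 in WT chow, and was not called (adjusted p = 0.986 and 0.114). Nr3c2, the mineralocorticoid receptor gene, was not called between genotypes either (log2 0.28 and -0.26, adjusted p = 0.261 and 0.286).

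Of the orphan receptors, Esrra, which works with PGC-type coactivators on mitochondrial genes, had 58.4, 48.8, 44.8 and 50.2 CPM in LKO HFD, against 32.6, 42.9, 32.9 and 38.4 CPM in WT HFD. In LKO chow it had 41.6, 40.3, 47.4 and 42.8 CPM, against 38.7, 31.5, 25.8 and 33.6 CPM in WT chow. LKO libraries lay above WT libraries on each diet without overlap. The log2 fold change was 0.46 on HFD (SE 0.121, adjusted p = 0.0123) and 0.41 on chow (SE 0.122, adjusted p = 0.0204). The Esrra call was lost on HFD without LKO HFD library 1 (adjusted p = 0.0528). On chow it was lost without WT chow library 2 or 3 or LKO chow library 3 (adjusted p between 0.0507 and 0.0691), or LKO chow libraries 3 and 4 together (log2 0.34, adjusted p = 0.134). Nr2f2, an orphan receptor of hepatocytes, vessels and stroma, had 35.1, 34.9, 30.8 and 29.5 CPM in LKO HFD, against 50.1, 37.6, 45.8 and 46.2 CPM in WT HFD. The fall was without overlap (log2 -0.46, SE 0.099, adjusted p = 0.00300) and its call held under every alternative run. Summed CPM of 12 endothelial markers ran from 326 to 498 in LKO HFD and from 299 to 776 in WT HFD, and that of 12 stellate cell markers from 376 to 463 in LKO HFD and from 378 to 576 in WT HFD. None of these markers was called between the HFD groups, none was at 0 throughout a group, and their part in the fall of Nr2f2 was not tested. On chow Nr2f2 averaged 34.1 ± 0.996 CPM in LKO and 38.1 ± 4.08 CPM in WT and was not called (log2 -0.16, adjusted p = 0.263). Exons of Nr2f2 share 643 bases with B130024G19Rik on the other strand. Those of Esrra share 73 with Trmt112, those of Rora 82 with Gm15511 and those of Nr3c2 247 with Gm10649, also on the other strand.

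Rora, which activates Arntl and other clock genes, had 94.6, 89.5, 70.4 and 76.8 CPM in LKO HFD, against 70.5, 47.7, 54.3 and 57.7 CPM in WT HFD. The lowest LKO HFD library was just below the highest WT HFD library. The call (log2 0.52, SE 0.173, adjusted p = 0.0443) was lost without any one of 6 libraries, which were WT HFD 2, 3 and 4 and LKO HFD 1, 2 and 4 (adjusted p between 0.0622 and 0.127). On chow Rora averaged 80.6 ± 21.6 CPM in LKO and 83.2 ± 12.9 CPM in WT (adjusted p = 0.888). In WT mice Rora was lower on HFD than on chow without overlap, though not called (log2 -0.53, adjusted p = 0.131). The gap on HFD thus includes a low level in WT HFD. Hnf4a had 586, 583, 525 and 464 CPM in LKO chow, against 619, 694, 627 and 651 CPM in WT chow. This separation without overlap was small (log2 -0.26, SE 0.090, adjusted p = 0.0417). The call was lost without any one of 5 libraries, which were WT chow 2, 3 and 4 and LKO chow 3 and 4 (adjusted p between 0.0540 and 0.138). It was also lost without LKO chow libraries 3 and 4 together (log2 -0.15, adjusted p = 0.333) and with upper-quartile scaling (adjusted p = 0.0650). On HFD the means of Hnf4a were 519 ± 7.16 CPM in LKO and 504 ± 41.7 CPM in WT. The remaining orphan receptors Nr2c1, Nr2c2, Nr2f1, Nr2f6, Nr4a1 and Nr4a2 were called on neither diet. Of these, Nr2f6 separated the HFD groups without overlap, at 107 to 123 CPM in LKO and 127 to 146 CPM in WT, but missed the threshold (log2 -0.26, adjusted p = 0.117). Nr2c2 shares 4590 exon bases with Mrps25 and Nr2f6 shares 1622 with Ocel1, both on the other strand. Nr2f1, Nr4a1 and Nr4a2 stood between 0.480 and 7.33 CPM in all libraries, and their counts leave wide errors (SE 0.293 to 0.500 in the 4 comparisons).

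The split within LKO chow ran through many of the receptors. Without LKO chow libraries 1 and 2, 15 of 31 receptors were called in LKO chow against WT chow (5 higher, 10 lower), beside 34.3% of all genes. Without libraries 3 and 4, 6 were called (5 higher, 1 lower), beside 16.2% of all genes. For Nr3c1 the log2 fold change was -0.79 without libraries 1 and 2 (adjusted p = 0.000401) and -0.06 without libraries 3 and 4 (adjusted p = 0.825). Rxra had -0.72 (adjusted p = 0.00422) and -0.10 (adjusted p = 0.746) in these fits. Ppara had -1.09 (adjusted p = 0.0155) and -0.01 (adjusted p = 0.984), and Esr1 -0.68 (adjusted p = 0.00810) and 0.11 (adjusted p = 0.714). The calls of Rarg, Rxrg, Thra and Nr1i2 held in both fits. The pairs also differed in sums of cell type markers, as given above. Whether the pairs differ by collection time or by cell content was not tested.

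**Figure D4:**
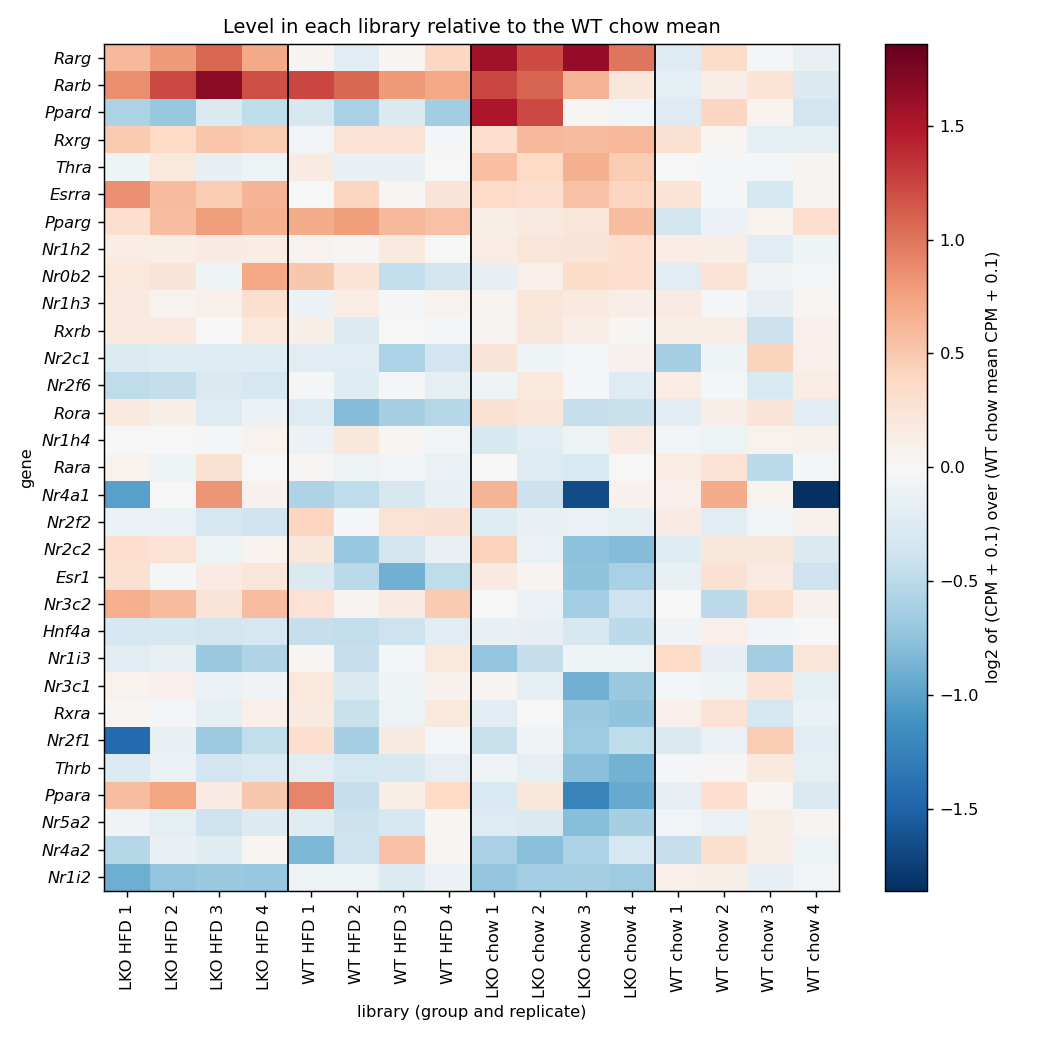
Level of 31 receptors in each of the 16 libraries as log2 of (CPM + 0.1) over (WT chow mean CPM + 0.1), with genes sorted by the LKO against WT change on chow. Rarg is raised in LKO libraries and Nr1i2 lowered in all 8 of them, and LKO chow libraries 3 and 4 are lower than libraries 1 and 2 in Ppara, Rxra, Nr3c1, Thrb and Esr1.

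The response to the diet was compared within each genotype, HFD against chow. In LKO, Nr3c2 was higher on HFD and Thra and Ppard were lower. In WT, Pparg and Rarb were higher and Hnf4a was lower. In LKO 3 of 31 receptors were called (9.68%, 1 higher and 2 lower), beside 2.22% of all genes tested (1.14% higher, 1.07% lower). In WT 3 of 31 were called (9.68%, 2 higher and 1 lower), beside 2.04% of all genes (0.970% higher, 1.07% lower). The median log2 fold change of the receptors was 0.10 in LKO and -0.03 in WT, where that of all genes was -0.00 and 0.01. These counts are small: the LKO count was 1 without LKO HFD library 1, 2 or 4, beside 0.763% to 0.874% of all genes. The WT count was 0 without WT chow library 1, beside 1.38% of all genes, and 1 without WT chow library 4 or WT HFD library 1, 2 or 3, beside 1.07% to 1.53%. In LKO it was 5 by DESeq2, beside 5.45% of all genes, and 12 by limma voom with quality weights, beside 14.2%. Without LKO chow libraries 1 and 2 it was 10, beside 18.9% of all genes. The diet groups also differed in a clock gene: Arntl averaged 5.45 CPM in LKO HFD and 22.0 in LKO chow (log2 -2.01, adjusted p = 0.0138), and 5.62 CPM in WT HFD and 16.9 in WT chow (log2 -1.59, adjusted p = 0.0458). The part of collection time in the diet results was not tested.

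In LKO mice Thra, whose libraries are given above, averaged 19.5 ± 2.19 CPM on HFD and 28.6 ± 2.42 CPM on chow with no overlap (log2 -0.55, SE 0.095, adjusted p = 0.00540). This diet call held under every alternative run. In WT mice the log2 fold change of Thra was -0.03 (adjusted p = 0.933). Ppard averaged 8.55 ± 1.17 CPM in LKO HFD and 21.8 ± 11.4 CPM in LKO chow, where libraries 1 and 2 were highest. The fall (log2 -1.35, SE 0.295, adjusted p = 0.0279) was -0.50 without these libraries and no longer called (adjusted p = 0.0777), and it was also lost without LKO HFD library 1, 2 or 4 (adjusted p between 0.0750 and 0.101) and in a fit of the LKO groups alone (adjusted p = 0.0993). Nr3c2 had 22.2, 20.8, 16.3 and 20.5 CPM in LKO HFD, against 13.8, 12.8, 8.88 and 10.5 CPM in LKO chow. The groups did not overlap (log2 0.79, SE 0.164, adjusted p = 0.0173). The Nr3c2 call was lost without any one of 5 libraries, which were LKO chow 3 and 4 and LKO HFD 1, 2 and 4 (adjusted p between 0.0505 and 0.0698), and without LKO chow 3 and 4 together it was 0.58 (adjusted p = 0.159). Both LKO comparisons that name Thra and Ppard use the same LKO chow libraries.

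In WT mice Pparg averaged 22.5 ± 1.52 CPM on HFD and 14.3 ± 2.74 CPM on chow, and every HFD library was above every chow library (log2 0.66, SE 0.137, adjusted p = 0.0165). Without WT chow library 1 it was 0.56 and just outside the threshold (adjusted p = 0.0515). In LKO mice the log2 fold change of Pparg was 0.31 (adjusted p = 0.234). Rarb had 7.35, 6.46, 5.33 and 5.07 CPM in WT HFD, against 2.67, 3.33, 3.64 and 2.51 CPM in WT chow. All HFD libraries were above all chow libraries (log2 0.99, SE 0.230, adjusted p = 0.0326), while Top2b on the other strand was not called (log2 -0.02, adjusted p = 0.955). The Rarb call was lost without any one of 5 libraries, which were WT chow 1 and 4 and WT HFD 1, 2 and 3 (adjusted p between 0.0571 and 0.101). Stellate cells, which store vitamin A, are a known site of Rarb and Pparg expression. The summed level of 12 stellate markers ran from 378 to 576 CPM in WT HFD and from 261 to 420 CPM in WT chow, none was at 0 throughout a group, and 3 of the 12 were called higher. These were the collagen genes Col1a1 (log2 1.18, adjusted p = 0.0204), Col1a2 (log2 1.01, adjusted p = 0.0101) and Col3a1 (log2 1.03, adjusted p = 0.00429). The stellate markers had a median log2 fold change of 0.37. That of 12 endothelial markers was 0.39 and that of 12 Kupffer cell and macrophage markers 0.43, with no gene of either list called. Bile duct, T and NK cell, B and plasma cell and hepatocyte markers had medians of 0.09, -0.04, -0.77 and -0.20. The part of these markers in the rise of Rarb and Pparg was not tested. Hnf4a averaged 504 ± 41.7 CPM in WT HFD and 648 ± 33.7 CPM in WT chow, without overlap (log2 -0.36, SE 0.090, adjusted p = 0.0458). The Hnf4a call was lost without any one of 7 of the 8 WT libraries, all but WT HFD 4 (adjusted p between 0.0657 and 0.123) and in a fit of the WT groups alone (adjusted p = 0.0928). Of the 9 hepatocyte markers, whose sums did not overlap between these groups as given above, 1 was called, the albumin gene Alb. It averaged 49709 CPM in WT HFD and 82883 CPM in WT chow (log2 -0.74, adjusted p = 0.00179). The part of these markers in the fall of Hnf4a was not tested. Rarb and Hnf4a were called both here and in LKO chow against WT chow, in the same direction each, and both comparisons use the same WT chow libraries.

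Whether the genotype effect differed between diets was asked with the interaction term. No receptor was called by edgeR (0 of 31, beside 0.0208% of all genes), by DESeq2 or by limma voom, while 9 of 31 had an unadjusted p below 0.05, beside 8.75% of all genes. The median was 0.07 for the receptors and -0.02 for all genes. The values farthest from 0 were 0.92 for Esr1 (SE 0.273, adjusted p = 0.400), -0.91 for Ppard (SE 0.417, adjusted p = 0.566) and -0.66 for Rarg (SE 0.238, adjusted p = 0.479). Thra had -0.52 (SE 0.135, adjusted p = 0.380). A genotype effect called on 1 diet alone is thus not shown to differ between diets for any of the 31 genes. Without LKO chow libraries 1 and 2, 9 receptors were called, 8 higher and 1 lower, beside 8.61% of all genes.

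Lists of known partners and targets of the receptors were read beside them, as counts of calls over all genes tested. Among 16 tested genes of retinoid handling and retinoic acid response, 3 were called higher and 1 lower in LKO on HFD and 3 higher and 2 lower on chow (medians 0.15 and 0.28). Bco1, which cleaves carotene to retinal, rose on HFD and on chow (log2 1.25 and 1.04, adjusted p = 2.29e-05 and 0.000110), as did Aldh1a1, which oxidises retinal to retinoic acid (log2 0.78 and 0.64, adjusted p = 4.92e-05 and 0.000249). Of the genes called lower, Ttr fell on HFD (log2 -0.42, adjusted p = 0.0453) and Rdh10 on chow (log2 -0.30, adjusted p = 0.0157). Both of these calls were lost under some of the alternatives.

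Of 13 tested genes of thyroid hormone handling and response, 2 were called in each direction on HFD and 1 in each on chow (medians -0.00 and -0.07). Hr, a corepressor that thyroid hormone induces in brain, had 9.51, 7.16, 19.2 and 9.56 CPM in LKO HFD, against 1.54, 1.87, 1.33 and 0.858 CPM in WT HFD. In LKO chow Hr had 18.1, 19.1, 13.3 and 13.3 CPM, against 1.07, 1.17, 1.67 and 0.290 CPM in WT chow. No libraries overlapped on either diet (log2 3.03 and 3.93, adjusted p = 2.60e-05 and 2.14e-06). Me1, the malic enzyme gene that thyroid hormone induces in liver, went the other way. It ran from 189 to 227 CPM in LKO HFD, against 315 to 877 CPM in WT HFD, and from 133 to 233 CPM in LKO chow, against 169.8 to 813 CPM in WT chow. The Me1 groups overlapped on chow alone (log2 -1.24 on HFD and -1.48 on chow, adjusted p = 0.0458 and 0.0154). Its call was lost on HFD without any one of 6 libraries, which were WT HFD 2 and 3 and LKO HFD 1 to 4. On chow it was lost without WT chow library 3, without LKO chow libraries 1 and 2 and without LKO chow libraries 3 and 4. Of 27 targets of PXR and CAR, 7 were called higher and 8 lower in LKO on HFD, and 6 higher and 12 lower on chow (medians -0.20 and -0.36). Ugt1a9, a glucuronosyltransferase, rose (log2 2.53 and 1.94, adjusted p = 2.04e-08 and 2.66e-07), and Ces2a, a carboxylesterase, fell on HFD (log2 -1.13, adjusted p = 5.98e-06). Cyp2b10, the classical CAR target, averaged 50.2 CPM in LKO HFD and 4.53 CPM in WT HFD (log2 3.47, adjusted p = 2.45e-06). In WT mice Cyp2b10 was itself lower on HFD than on chow (log2 -2.48, adjusted p = 0.000571), so the gap on HFD includes a low level in WT HFD. Its near relative Cyp2b13 was lower in LKO on HFD (log2 -2.47, adjusted p = 1.67e-07). Genes of these families are near-identical in sequence, so the split of reads between them is uncertain.

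Among 8 tested PPARG targets, 4 were called higher and none lower in LKO on HFD and 7 higher and none lower on chow (medians 0.92 and 2.16), although Pparg itself was not called in LKO. In the diet comparisons 1 was called higher in LKO and 4 in WT, with none lower (medians 0.39 and 1.16). Mogat1, a triglyceride synthesis enzyme, averaged 16.8 CPM in LKO HFD and 2.99 in WT HFD, and 10.5 CPM in LKO chow and 0.997 in WT chow (log2 2.50 and 3.36, adjusted p = 7.25e-06 and 8.18e-07). Of 24 PPARA targets 2 were called higher and 1 lower on HFD, and 4 higher and 3 lower on chow (medians 0.04 and 0.05). Of 15 FXR targets 1 was called higher and 3 lower on HFD, and 2 higher and 8 lower on chow (medians -0.06 and -0.31). This list was not split into genes that FXR raises and genes that it lowers, so its counts give no direction of FXR activity. Osgin1, an oxidative stress response gene, rose (log2 1.05 and 1.73, adjusted p = 1.37e-05 and 4.02e-08). The bile acid uptake transporter gene Slc10a1 fell (log2 -0.69 and -0.93, adjusted p = 0.000173 and 6.91e-06). Abcb11 also fell (log2 -0.37 and -0.46, adjusted p = 0.0186 and 0.00334), and its HFD call was lost without WT HFD library 3 or LKO HFD library 4. Of 16 HNF4A targets 2 were called higher and 5 lower on each diet (medians -0.11 and -0.10). The coagulation factor gene F12 fell (log2 -0.86 and -0.72, adjusted p = 1.09e-05 and 5.65e-05), and Apoa4 rose (log2 1.64 and 2.17, adjusted p = 0.000112 and 6.23e-06). Of 18 glucocorticoid receptor targets none was called higher and 2 lower on each diet (medians 0.13 and -0.33). The shares of all genes called are those given with the receptor counts.

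Among 14 LXR targets, 3 were called higher and none lower on HFD against chow in LKO, and 4 higher and 1 lower in WT (medians 0.30 and 0.59), while neither LXR gene was called. In LKO against WT, none was called higher and 2 lower on HFD, and 1 in each direction on chow. The sterol exporter gene Abcg5 averaged 249.9 CPM in LKO HFD and 100.3 in LKO chow (log2 1.32, adjusted p = 0.00114), and 328 CPM in WT HFD and 77.2 in WT chow (log2 2.09, adjusted p = 5.38e-06). Its partner Abcg8 had log2 fold changes of 1.09 in LKO (adjusted p = 0.00180) and 1.87 in WT (adjusted p = 5.38e-06). Between genotypes on HFD, Abcg8 was lower in LKO (log2 -0.68, adjusted p = 0.00390). Of 15 FXR targets none was called higher and 3 lower in LKO by diet, and none higher and 5 lower in WT (medians -0.14 and -0.37). Osgin1 was among the 3 in LKO (log2 -0.95, adjusted p = 0.00105).

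**Figure D5:**
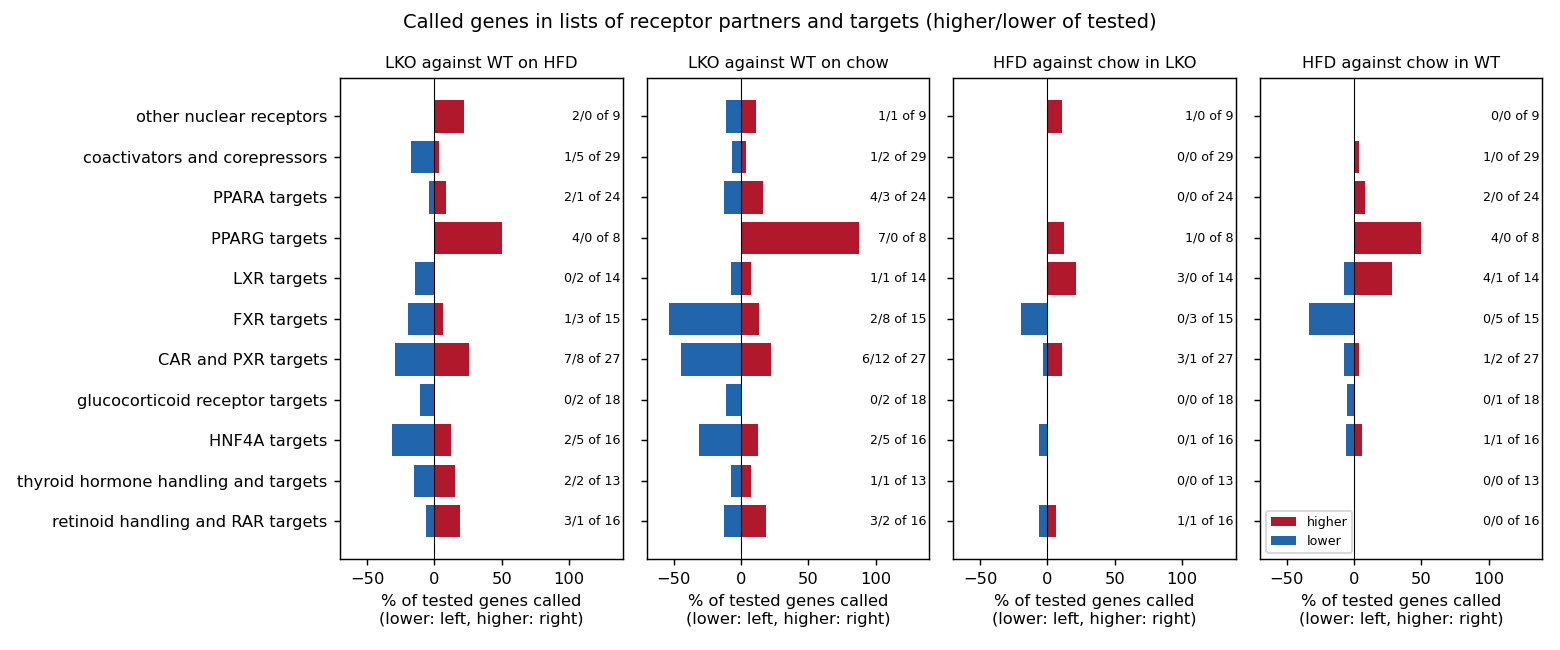
Percent of the tested genes of 11 lists called lower (left, blue) and higher (right, red) in each of 4 comparisons, with the numbers called higher/lower of those tested printed at the right. PPARG targets are called only higher (4 and 7 of 8 in the LKO panels), and CAR and PXR targets in both directions.

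Coregulators of nuclear receptors were called in both directions. Of 29 tested coactivators and corepressors, 1 was called higher and 5 lower in LKO on HFD, beside 10.3% and 7.57% of all genes. On chow 1 was called higher and 2 lower, beside 12.9% and 11.8% of all genes. The medians were -0.06 and -0.13. These calls are few, and no test of the list was run. Pprc1, a coactivator related to PGC proteins, averaged 9.34 CPM in LKO HFD and 17.5 CPM in WT HFD (log2 -0.90, adjusted p = 0.000969). Ncoa5 fell on HFD (log2 -0.46, adjusted p = 0.0116), as did Carm1, an arginine methyltransferase that acts as a coactivator (log2 -0.29, adjusted p = 0.0118). Of 17 further nuclear receptor genes 9 were tested, and 2 were called higher and none lower in LKO on HFD, and 1 in each direction on chow (medians 0.25 and 0.14). Hnf4g, a relative of Hnf4a, had 1.33, 1.91, 0.947 and 0.989 CPM in LKO HFD, against 0.240, 0.0983, 0.202 and 0.632 CPM in WT HFD (log2 2.11, adjusted p = 0.00333). It passed the filter on low counts that decides which genes are tested only through the LKO libraries, where it was high. Its calls therefore rest on few WT reads. Esrrg, a relative of Esrra, averaged 12.3 CPM in LKO HFD and 6.96 in WT HFD (log2 0.82, adjusted p = 0.00470).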

How the data were processed

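Per the labels, libraries were made from poly(A) RNA with a NEBNext Ultra II kit and read in pairs of 150 bases. The submitters' processing notes name Bowtie2, DESeq2 and mm10. The counting tool, the annotation and strand use are not given in the sources used here. The authors deposited estimated counts per gene symbol, not normalised, and 51.1% of them were whole (tolerance 1e-06). All were rounded. The 8 chow columns of the second deposited table stood 1 row low and were moved up, after which they matched the counts table in all 15119 genes (same tolerance). In the HFD columns 1 value differed.

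Tests used edgeR 4.0.16 (R 4.3.3): TMM, filterByExpr, robust quasi-likelihood fits of 4 group means over 16 libraries, 2-sided, with Benjamini-Hochberg adjustment over 14434 genes. CPM are TMM-scaled. The fit was tested on simulated data. The members and lists were chosen with earlier results of these data known. All members were named, and of each list the called genes with the lowest p, up to 4 a comparison, of which 1 gene is not reported here. Top2b, Tomm40l, Nr1d1, Dbp, Arntl, Alb and the collagens were named after their values were seen. Same-numbered libraries were not paired (correlation over 0.1 in 5 of 24 pairs). Gene positions are from GENCODE M21. Alternatives included DESeq2 1.42.0 and limma 3.58.1. Depth was 19142612 to 25120565 counts per library, so genes below 1 CPM rest on few reads.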

Additional observations from a re-analysis of the deposited data

Results flagged for a closer look

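In 6 of 124 groups of 4 libraries, 1 library stood far from the others by Dixon's test, which sets the gap to the nearest library against the range of the group. Chance flags about 1 in 20 groups, so this number is what chance would give. Rxrb had 34.9 CPM in LKO HFD library 3, beside 39.8 to 40.3 CPM in the other LKO HFD libraries. Rxrb also had 26.6 CPM in WT chow library 3, beside 37.5 to 38.4 CPM in the others. Nr1i2 had 36.9 CPM in LKO HFD library 1 (42.0 to 43.0 in the others) and 58.1 CPM in WT HFD library 3 (64.4 to 65.3 in the others), and both fall well outside the other genotype's range. Rxrg had 13.1 CPM in LKO chow library 1 (15.8 to 16.02 in the others), and Nr2f1 had 2.21 CPM in WT chow library 3 (1.28 to 1.43 in the others).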

How the results depend on the processing

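Of 22 member calls, 8 held under all alternatives run and 14 were lost under at least 1. The 8 were Rarg, Nr1i2 and Nr2f2 in LKO against WT on HFD, Rarg, Nr1i2, Rxrg and Thra on chow, and Thra by diet in LKO. Another 30 pairs of a gene and a comparison were called under an alternative alone. Leaving out 1 library at a time gave 3 to 6 called receptors in LKO against WT on HFD, 6 to 11 on chow, 1 to 4 by diet in LKO, 0 to 3 by diet in WT and 0 to 0 in the interaction. On chow the count was 6 with only the groups compared (15.4% of all genes) and 6 without LKO chow libraries 3 and 4 (16.2%). By diet in LKO it was 5 by DESeq2 (5.45% of all genes), 12 by voom (14.2%) and 10 without LKO chow libraries 1 and 2 (18.9%), and the interaction then had 9 (8.61%). Signs turned for Ppard on chow (-0.00704 without libraries 1 and 2) and, without libraries 3 and 4, for Esr1 (0.11) and Nr2c2 (0.18) on chow and Thrb (-0.12) and Nr2c2 (-0.0341) by diet in LKO. The cause of these changes was not tested. Genes near 1 CPM, Nr2f1 and Nr4a2, are limited by depth.

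Same-numbered libraries did not deviate together (median correlation -0.0178). With the replicate block, 6 receptors were called in LKO against WT on HFD, 8 on chow, 2 by diet in LKO, 2 by diet in WT and 0 in the interaction. The calls not made with the block were Hnf4a (adjusted p = 0.0713) and Ppard (0.0645) on chow, Ppard by diet in LKO (0.0507) and Hnf4a by diet in WT (0.0905).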
